A study of Rattus norvegicus with 72 samples.

Results

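The 50 mg/kg group at 6 h comprised 3 rats (3125, 3126 and 3127) whose liver RNA was examined 6 h after an oral dose of acetaminophen. It was taken as the samples titled for that dose and time, which gave 6 of the 72 arrays and 3 of the 36 rats of the series. Acetaminophen was given in methyl cellulose by oral gavage at 50, 150, 1500 or 2000 mg/kg, and left liver lobes were profiled at 6, 24 or 48 h, with 3 separate rats at each dose and time. Titles write the unit mg/kg out for 2 of the 150 mg/kg groups and mg for the others, including this one. RNA of each rat was hybridised on 2 two-colour Agilent oligonucleotide arrays with exchanged dyes. The other RNA on each array was that of control rats given the vehicle alone, combined in equal amounts into a pool for each dose and time. Titles name such a pool for 50 mg/kg at 6, 24 and 48 h and for 1500 and 2000 mg/kg at 6 h. For 150 mg/kg at 6 h they name a mock control liver. No source used here gives strain, sex or age, and food and water were freely available.

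Acetaminophen is cleared by the liver mainly through sulfation and glucuronidation. A smaller share is oxidised by cytochrome P450 enzymes, which need heme and electrons from their reductase Por, to a reactive quinone imine that glutathione neutralises. At doses that exhaust glutathione, the quinone imine binds proteins and hepatocytes die, with induction of antioxidant, metallothionein and stress genes, whereas low doses are regarded as free of such injury.

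Values below are log2 ratios of a rat to its control pool, each the mean of that rat's 2 arrays, and positive values mean more RNA in the treated rat. That direction rests on the red-over-green convention of the array software, which the labels do not state, and if it were reversed every sign would turn. The 17299 features tested were 9606 genes with a symbol and 7693 probes without one. Calls needed both an adjusted p below 0.05 (limma, Benjamini-Hochberg over all features) and a ratio at least 1.5-fold from the pool. The pool was 1 control sample shared by the 3 rats, so variation among control rats is not in the tests, and an effect of the dose cannot be told apart from a peculiarity of that pool. Arrays gave no levels, and signal intensities were not used here, so the identity of the tissue could be examined only as ratios.

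Features called in the 3 livers against their pool were almost entirely higher ones when both dye orientations were averaged. Of 17299 features, 246 were called (1.42%), of which 236 were higher (1.36%) and 10 were lower (0.0578%), or 17 lower without rat 3125. Their changes were modest in size, with a median log2 of 0.82 among the higher features, 67 of which were at least 2-fold higher, against a median of -0.01 over all features. Of the higher features, 100 carried a gene symbol and 136 did not, so that 42.4% had a name, compared with 55.5% of all features tested. The largest unnamed probe had a mean log2 of 2.09 and the lowest one -1.45. At an unadjusted p below 0.05 there were 1501 higher features (8.68%) and 948 lower ones (5.48%). With arrays scaled to equal spread, 457 were higher and 101 lower. The calls were less one-sided within a dye, with 196 higher and 129 lower on the Cy5 arrays alone. On the Cy3 arrays alone, 621 were higher and 228 lower. With no fold minimum, 549 were higher (3.17%) and 106 lower (0.613%).

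Gene ratios correlated between rats and differed between dyes. Over all features, pairs of the 3 rats correlated at 0.50 to 0.59, as a description across genes. The 3 rats share 1 control pool and the same pair of dye orientations, so this correlation does not measure agreement of the livers alone. The 2 arrays of a rat correlated only at -0.16 to 0.05 after they were turned to the same direction, while arrays of different rats in the same dye orientation correlated at 0.40 to 0.63. The mean of the Cy5 arrays and the mean of the Cy3 arrays correlated at -0.07 over all features. The higher features had a median log2 of 0.69 on the 3 arrays with the treated rat in Cy5 and of 0.97 on the 3 with the treated rat in Cy3. Of the 236 higher features, 225 were positive on all 6 arrays, as were 98 of the 100 with a symbol, and all 10 lower features were negative on all 6. Calls were made on the mean of both orientations, which favours like signs, so these counts are descriptions. The group mean correlated at -0.29 with the mean dye effect of the other groups. With that dye profile removed from each rat, an alternative chosen after seeing the data, 229 features were higher and 13 lower, and 222 of the 246 calls remained.

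**Figure D1:**
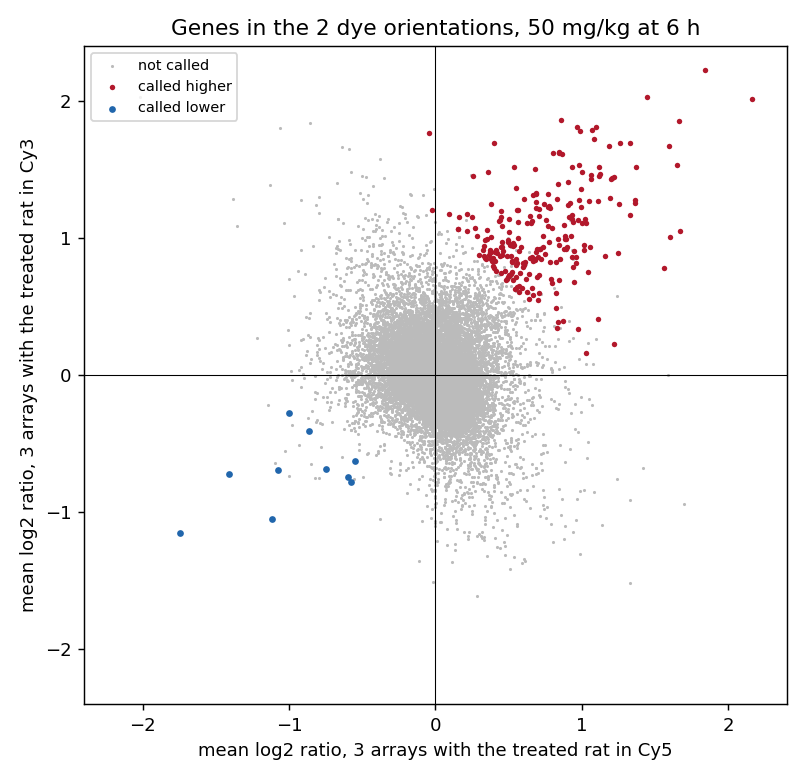
Each point is 1 of 17299 features, with the mean log2 ratio over the 3 arrays that had the treated rat in Cy5 on the horizontal axis and the mean over the 3 arrays that had it in Cy3 on the vertical axis. Features called higher (236, red) and called lower (10, blue) lie toward the upper right and lower left, which follows from their choice on the mean of both axes. The correlation over all features is -0.07.

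The largest named changes are given by the role of each gene, beginning with genes of nuclear proteins, and the grouping was made after the values were seen. Zfp354a, a zinc finger transcription factor, had log2 ratios of 2.44, 2.29 and 1.38 in rats 3125, 3126 and 3127. Rat 3127 was the lowest, and the gene still had the largest mean of all named genes in the group (2.03 ± 0.57, SD, n = 3, limma adjusted p = 4.11e-05). Topors, a nuclear ligase that attaches ubiquitin and SUMO, had 1.95, 1.34 and 1.15, with rat 3125 clearly above the other two. Its mean was 1.48 ± 0.42 (SD, n = 3, limma adjusted p = 4.10e-07), a 2.78-fold higher ratio. Anp32b, an acidic nuclear phosphoprotein that binds histones, was 2.74-fold higher with little spread between rats (1.5, 1.49 and 1.38). Phf3, a PHD finger protein, was the most even of the large changes, at 1.17, 1.09 and 1.12 (limma adjusted p = 2.61e-07).

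Several of the named genes act on mRNA. Srrm1, a splicing coactivator of the serine and arginine repeat family, had ratios of 0.97, 1.26 and 1.10, a 2.16-fold higher mean (limma adjusted p = 6.89e-08). Ddx6, the RNA helicase of processing bodies, had 1.17, 1.31 and 1.3, and Zc3h13, a component of the complex that methylates adenosine in mRNA, had 1.39, 0.97 and 0.88. The ratios of both genes were above 0 on each of the 6 arrays, as the choice of the largest named changes required. The rats kept no common order between the genes. Fubp1, which binds single-stranded DNA upstream of MYC and also RNA, was 2.31-fold higher (1.21 ± 0.20, SD, n = 3). Ptms, the small acidic nuclear protein parathymosin, was 2.36-fold higher (1.24 ± 0.23), with rat 3125 the lowest at 0.97.

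Usp7, a deubiquitinating enzyme that acts on Mdm2 and p53, had log2 ratios of 1.84, 1.80 and 1.58 and was 3.33-fold higher than in the pool. Of 44 measured genes of ubiquitin and the proteasome, it was the 1 called, where 1.42% of all features were. The list's median was -0.02. A second deubiquitinase of that list, Usp10, had an adjusted p of 0.000209 at a mean of 0.47, which is under the fold minimum. None of the measured proteasome subunits was called, and Psmd12 had the largest mean among the named subunits that reached an unadjusted p below 0.05 (0.34, limma adjusted p = 0.11). In the p53 target list, 0 of 16 genes were called and 0 had an unadjusted p below 0.05 by limma. Over all features these shares were 1.42% and 14.2%, and the list's median was -0.06. Cdkn1a, the p53 target that arrests the cell cycle, had 0.06, 0.01 and -0.23 in the 3 rats.

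Alas1 and Por were called higher, and no P450 gene of the fixed lists was called. Alas1, the rate-limiting enzyme of heme synthesis in liver, had log2 ratios of 1.61, 1.35 and 1.37, so that the 3 rats were 2.72-fold higher on average (1.44 ± 0.14, SD, n = 3, limma adjusted p = 7.71e-06). The ratios of this gene were alike in both dyes, at 1.19 to 1.58 on the Cy5 arrays and 1.40 to 1.63 on the Cy3 arrays. Por, the P450 reductase, had 0.85, 0.52 and 0.41 and was 1.51-fold higher (limma adjusted p = 0.0123), just above the fold minimum. The call of Por ended on the 3 rats alone (limma adjusted p = 0.0761), on the Cy5 arrays (mean 0.40, adjusted p = 0.106) and with the dye profile removed (mean 0.58, under the fold minimum). It also ended without rat 3125 (mean 0.46, adjusted p = 0.238) and without rat 3126 (mean 0.63, adjusted p = 0.0644). Por was the 1 gene called among 10 measured genes of acetaminophen oxidation, where 1.42% of all features were called. The median of that list was -0.02. Cyp2e1, the main enzyme that oxidises acetaminophen at high dose, had -0.40, -0.06 and -0.52 and did not pass the test (adjusted p = 0.567). Cyp1a2 averaged -0.03 ± 0.17 (SD, n = 3), with all 3 Cy5 arrays below 0 (-0.38, -0.50 and -0.58) and all 3 Cy3 arrays above 0 (0.67, 0.41 and 0.21), so its ratio followed the dye. Among 24 other P450 and xenobiotic receptor genes 0 were called by limma, and 4 had an unadjusted p below 0.05, with 2 in each direction. The shares over all features were 1.42% called and 14.2% at that p.

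Further named genes encode receptors, kinases and other proteins outside the nucleus. Ghr, the growth hormone receptor, had log2 ratios of 1.28, 1.40 and 1.20, a 2.45-fold higher mean with every array above 1 (limma adjusted p = 4.63e-06). Of the 16 measured genes in its list of growth hormone, androgen and growth factor genes it was the 1 called. Over all features 1.42% were called, and the list's median was -0.04. Igf1, the hormone that growth hormone induces in liver, had a mean of 0.23 (limma adjusted p = 0.345). Csnk1a1, the kinase casein kinase 1 alpha, which primes beta-catenin for destruction, had 1.61, 1.40 and 1.16 and was 2.62-fold higher. Ptprs, a receptor tyrosine phosphatase, had 1.02, 1.03 and 1.22, and its call ended without rat 3127 (mean 1.03, limma adjusted p = 0.0682). Tsku, the secreted liver protein Tsukushi, had 1.3, 1.11 and 0.77, and its call ended without rat 3125 (0.94, limma adjusted p = 0.185) and without rat 3126 (1.03, limma adjusted p = 0.123). Gkap1, an anchoring protein of cyclic GMP-dependent kinase, was 2.65-fold higher with little spread (1.47, 1.35 and 1.39). Actn4, the actin crosslinker alpha-actinin 4, had 1.52, 1.36 and 1.28. Its mean on the Cy3 arrays was well above that on the Cy5 arrays, with 1.48 to 2.02 and 0.87 to 1.08. The same held for Anp32b (1.77 to 1.85 and 0.90 to 1.23), Gkap1 (1.55 to 1.88 and 0.97 to 1.23) and Csnk1a1 (1.42 to 2.03 and 0.82 to 1.19). For Zc3h13 the ranges overlapped (0.82 to 1.61 and 0.79 to 1.18). A small spread between rats is thus one of means over both dyes.

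**Figure D2:**
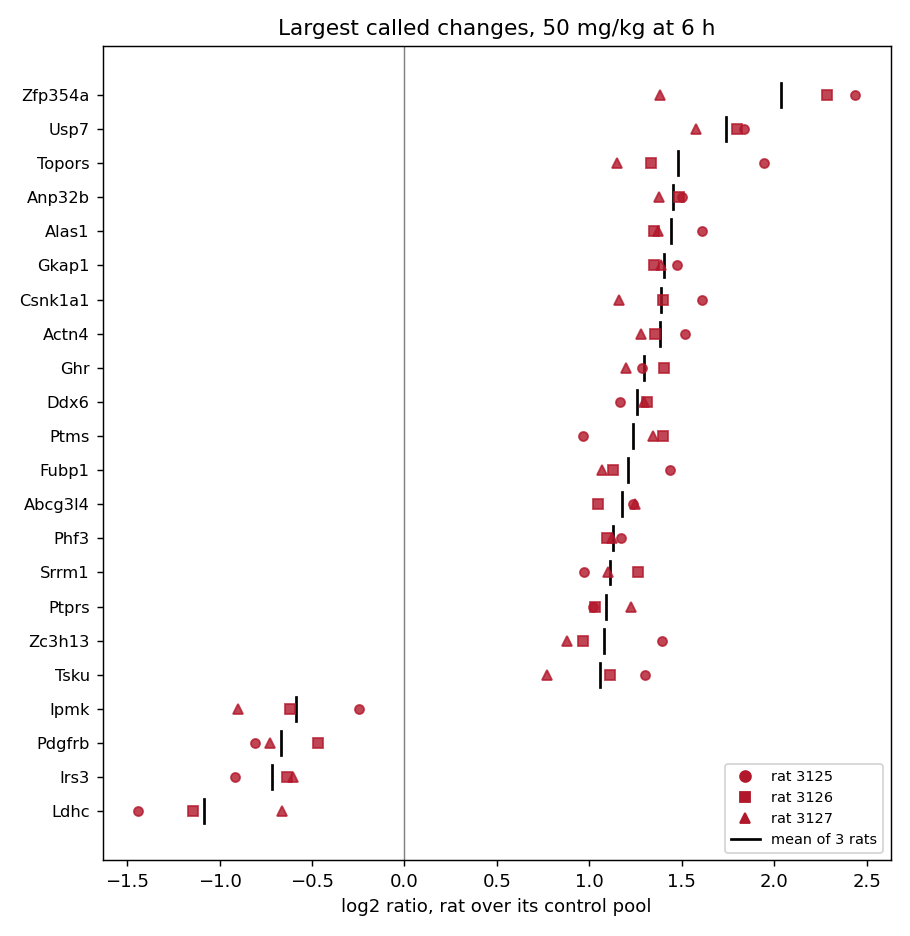
Log2 ratios of each of the 3 rats to their control pool (symbols) with the mean (black bar) for the 18 largest named increases and the 4 named decreases. Every symbol of the upper 18 genes lies above 0.7, and Zfp354a and Topors show the widest spread among the rats.

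Only 4 of the 10 lower features had a symbol. Ldhc, the lactate dehydrogenase of testis, had log2 ratios of -1.44, -1.15 and -0.66. It was 2.12-fold lower on average (limma adjusted p = 0.000154), or adjusted p = 0.0628 with the 3 rats fitted alone, and was the 1 called among 20 measured genes of testis and brain, whose median was 0.06. Irs3, an insulin receptor substrate of rodents, had -0.92, -0.64 and -0.60, and was the 1 called of 23 measured genes that respond to glucocorticoids and feeding, a list with a median of 0.05. Over all features 1.42% were called. Pdgfrb, a growth factor receptor of stellate cells, had -0.81, -0.47 and -0.73. The call of Pdgfrb ended without rat 3125 (-0.60, limma adjusted p = 0.0807) and without rat 3127 (-0.64, adjusted p = 0.0557). In bulk liver, fewer cells of a type and less RNA per cell cannot be told apart. Of the other 12 measured stellate markers 0 were called, the list had a median of 0.02 and its highest gene was Col1a2 at 0.34. Ipmk, an inositol phosphate kinase, had -0.24, -0.62 and -0.90, lowest in rat 3127, and its fold minimum was no longer met without rat 3126 (-0.57) or rat 3127 (-0.43).

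No gene of the NRF2, glutathione S-transferase or sulfation and glucuronidation lists was called, and their counts are read against 1.42% of all features called and 14.2% at an unadjusted p below 0.05. Hmox1, the inducible heme oxygenase that NRF2 controls, was at 0.27, 0.15 and 0.05, and Nqo1, a quinone reductase with the same regulator, was at -0.14, 0.17 and 0.10. None of the 25 measured genes of the NRF2 and glutathione supply list was called by limma, 3 had an unadjusted p below 0.05, and the median was 0.00. Gclm, the modifier subunit of the enzyme that starts glutathione synthesis, averaged 0.36 (adjusted p = 0.334). Means of the list ran from -0.77 (Osgin1) to 0.65 (Akr7a3). Of 15 glutathione S-transferase genes 0 were called, 2 had an unadjusted p below 0.05, both lower, and Gsta3 averaged 0.11 ± 0.10 (SD, n = 3). Sulfation and glucuronidation genes numbered 15, with 0 called by limma, 3 at an unadjusted p below 0.05 and a median of 0.03. Ugt2a1 passed the adjusted threshold (limma adjusted p = 0.0103) at a mean of 0.39, under the fold minimum.

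Metallothionein 2A (Mt2A), a metal-binding stress protein, was an uncertain case. Its log2 ratios were 0.92, 0.95 and 0.91, the tightest of the fixed genes, and 1.90-fold on average. The limma adjusted p was 0.165 in the fit over all 36 rats, and the gene was called under 4 of the other fits, among them that of the 3 rats alone (adjusted p = 0.0102 to 0.0492 over the 4). Mt1, the second metallothionein, had 0.18, 0.40 and 0.09 and did not pass the test (adjusted p = 0.827). Stress genes of other kinds did not pass either. Atf3 averaged -0.01, Ddit3 -0.15 and the acute phase protein A2m 0.10.

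Heat shock genes held 1 called member of 24, Hsp90ab1, a constitutive cytosolic chaperone, at 0.89, 0.71 and 0.53. The 2 probes of that gene disagreed in size, with 0.11 on one and 1.32 on the other, so the mean stands for unlike probes. Its inducible relative Hsp90aa1 had a mean of 0.56 (limma adjusted p = 0.127), and Chordc1, a cochaperone of Hsp90, had an adjusted p of 0.0122 at a mean of 0.40. Apob, the structural protein of very low density lipoprotein, had 0.59, 0.86 and 0.63, with its 2 probes at 0.55 and 0.83. It was the 1 called of 35 measured genes of coagulation, complement and lipoproteins and of 10 hepatocyte markers. The medians of those lists were -0.04 and 0.07. For these lists and the heat shock list, the share called over all features was 1.42%. The apolipoproteins Apoa1 and Apoa2 had means of -0.34 and -0.38, and neither passed the test (adjusted p = 0.32 and 0.123).

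No gene was called in the metabolic lists. Of 32 urea cycle and amino acid breakdown genes, 10 were above 0, the median was -0.14, 0 were called, and 10 had an unadjusted p below 0.05 in the lower direction against 1 in the higher, where the shares over all features were 5.48% and 8.68%. Gpt, alanine aminotransferase, had an adjusted p of 0.0127 at -0.58, short of the fold minimum, and Otc, the urea cycle enzyme, had 0.0492 at -0.45. Fatty acid synthesis had the lowest median of the pathway lists (-0.17), with Fasn at -0.87 and Acly at -0.62, neither called (adjusted p = 0.212 and 0.165). Of 37 subunits of oxidative phosphorylation, 0 were called by limma, 9 had an unadjusted p below 0.05 and were lower, and 1 was higher, and Uqcrc1 reached an adjusted p of 0.00185 at -0.36. Of 25 genes of fatty acid oxidation and PPARA targets, 15 were above 0 (median 0.02), 4 higher and 2 lower ones had an unadjusted p below 0.05, and 10 of 18 bile acid genes were above 0 (median 0.03), with 0 at an unadjusted p below 0.05. Cytosolic ribosomal protein genes had 35 of 45 above 0, 7 at an unadjusted p below 0.05, all higher, and a median of 0.06. Rpl39 had an adjusted p of 0.00104 at 0.49 and was not called. These lists were chosen with earlier results of these data known, so the counts are descriptions.

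**Figure D3:**
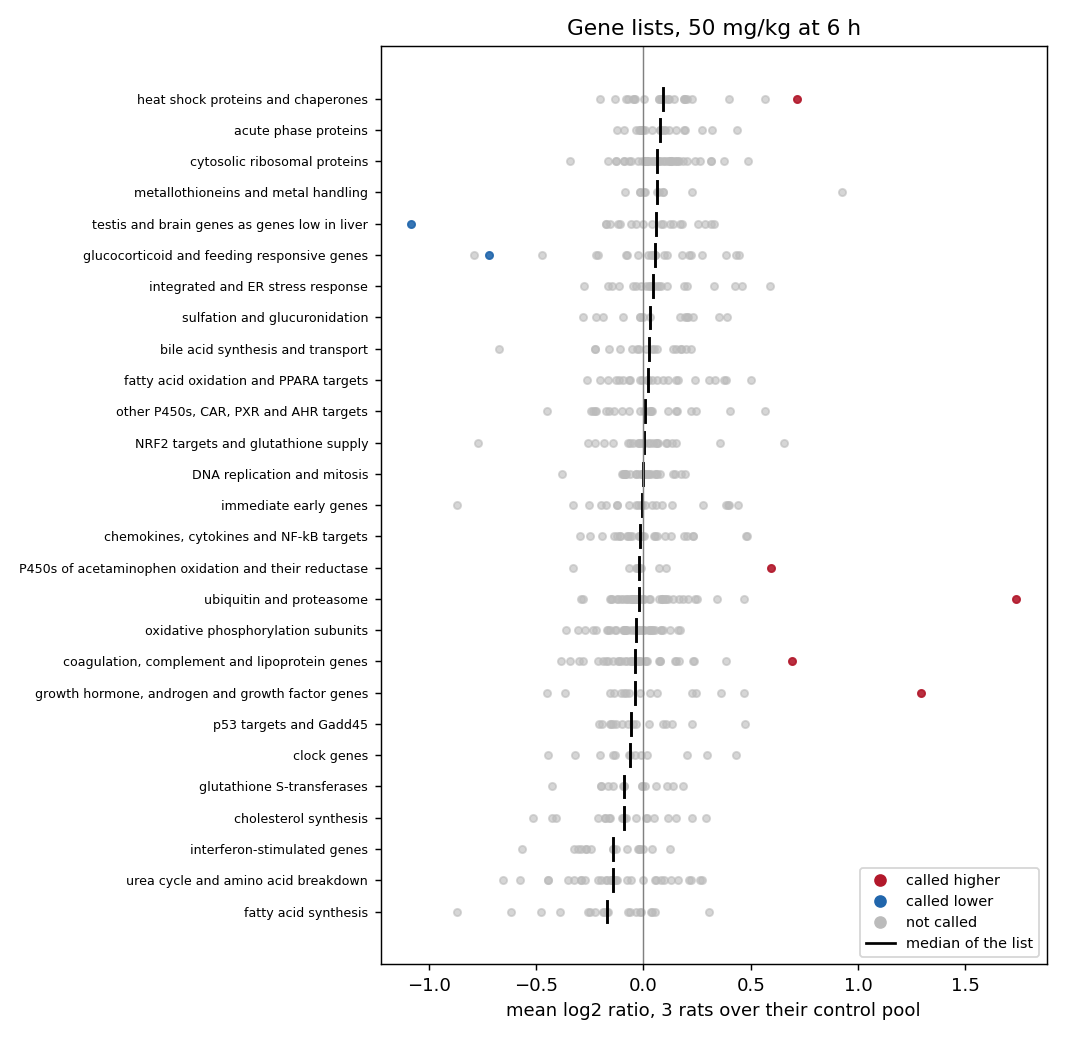
Mean log2 ratio of the 3 rats to their pool for every measured member of 27 pathway lists (points), with the median of each list (black bar). Medians run from -0.17 for fatty acid synthesis to 0.09 for heat shock proteins. The few called genes (red or blue) lie far from the medians of their own lists, which follows from the fold minimum.

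Among markers of non-hepatocyte cells, Pdgfrb of the 13 stellate and fibroblast genes was the 1 called. No gene was called by limma among 16 macrophage, 4 neutrophil, 16 lymphocyte, 11 sinusoidal endothelial, 6 cholangiocyte, 5 erythroid and 8 muscle, fat and pancreas genes, of which 4 had an unadjusted p below 0.05, all lower, against 1.42% called and 14.2% at that p over all features. The medians of these 7 lists lay between -0.10 and -0.01. Of inflammatory genes, 0 of 27 chemokine, cytokine and NF-kB genes and 0 of 22 acute phase genes were called. At an unadjusted p below 0.05, 3 of the 27 were higher and 1 lower, and 2 of the 22 were higher and 0 lower. The shares over all features were 8.68% higher and 5.48% lower. Of 17 interferon-stimulated genes 0 were called, 2 were above 0, 1 was lower at that p, and the median was -0.14.

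The promoters of the higher genes were set beside those of all tested genes, since 100 named genes had moved together. Of these, 80 had 1 RefSeq promoter window of 300 bases (250 before and 50 after the start, assembly GRCr8), against 7580 of all tested genes. The letters TGACG, the core of a cyclic AMP response element, were present on either strand in 45% of the windows of higher genes and in 29.6% of all windows. The full palindrome TGACGTCA, which contains TGACG on both strands, was present in 5% and 2.8%. The GC box GGGCGG was present in 71.2% and 58.4% and the ETS letters CCGGAAG in 22.5% and 15%, while the antioxidant element TGANNNNGC was near its background at 47.5% and 43.1%. Windows of the higher genes were also richer in GC (median 62.7% against 60.3%), and the genes were longer (median span 34.7 kb against 23.2 kb). Among the 15 of the 18 largest named increases with such a window, 4 held TGACG within the 120 bases before the start, compared with 31.2% of the higher genes and 17.2% of all. Those of Topors and Ptprs, which hold the full palindrome, and that of Zc3h13, which holds 2 separate copies of TGACG, are shown 5′ to 3′ on the gene's strand to let the elements be seen in place, with the element in capitals. They lie at chr5:60195980-60196099 (minus strand), chr9:1394092-1394211 (minus strand) and chr15:57016661-57016780 (plus strand) in GRCr8.
Topors: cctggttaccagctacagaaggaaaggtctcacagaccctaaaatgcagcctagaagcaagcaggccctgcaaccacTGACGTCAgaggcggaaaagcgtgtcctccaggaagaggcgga
Ptprs: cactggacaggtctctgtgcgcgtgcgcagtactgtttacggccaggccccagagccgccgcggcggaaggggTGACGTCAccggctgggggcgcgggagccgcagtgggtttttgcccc
Zc3h13: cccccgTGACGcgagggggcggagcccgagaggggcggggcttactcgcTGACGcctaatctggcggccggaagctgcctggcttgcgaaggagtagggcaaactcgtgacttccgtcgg
A match of letters is a description of these windows and was not tested as a site of binding.

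The next dose, 150 mg/kg at 6 h, had far fewer calls against its own control, with 4 higher (0.0231%) and 2 lower (0.0116%). In the contrast of 50 against 150 mg/kg, 232 features differed (1.34%), of which 211 were higher at 50 mg/kg (1.22%) and 21 were lower (0.121%), or 832 and 330 with arrays scaled to equal spread. Of the 236 features higher at 50 mg/kg, 169 were also higher in this contrast, which uses the same 3 rats, and their 236 means at 150 mg/kg had a median of 0.01, near that of all features (0.00). Because the 2 groups were set against different controls, a difference between the controls enters these values. Usp7 in the 3 rats ranged from 1.58 to 1.84 at 50 mg/kg and from 0.06 to 0.16 at 150 mg/kg (difference 1.63 ± 0.24, SE, limma adjusted p = 0.000257). Topors differed by 1.54, Actn4 by 1.52 and Anp32b by 1.43. Genes named by this contrast were required to have no overlap between the rats of the 2 groups. The call of the Actn4 difference ended on the 12 rats at 6 h (limma adjusted p = 0.0803) and on the Cy5 arrays (1.19, adjusted p = 0.129). Zfp354a ranged from 1.38 to 2.44 at 50 mg/kg and from -0.26 to 0.91 at 150 mg/kg, and the call of its difference ended without rat 3125 (1.67, limma adjusted p = 0.0944) and without rat 3126 (1.74, adjusted p = 0.0718), and on the Cy5 arrays (1.66, adjusted p = 0.091). Without rat 3125 the count of 232 was 149.

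Metallothioneins were lower at 50 than at 150 mg/kg. Mt2A averaged 0.92 at 50 mg/kg and 2.97 at 150 mg/kg (single rats 0.91 to 0.95 against 2.46 to 3.43, difference -2.04, limma adjusted p = 0.0174). Mt1 averaged 0.22 at 50 mg/kg and 1.86 at 150 mg/kg (difference -1.64, limma adjusted p = 0.0338). Both calls ended when any 1 of the 3 rats was left out, with adjusted p between 0.0603 and 0.0712 for Mt2A and between 0.0747 and 0.12 for Mt1. Ldhc averaged -1.08 at 50 mg/kg and 0.37 at 150 mg/kg (limma adjusted p = 0.00103). Dbp, a clock-controlled transcription factor, averaged -0.20 at 50 mg/kg and 0.88 at 150 mg/kg, a difference of -1.08 whose call ended without rat 3125 (limma adjusted p = 0.103) and without rat 3127 (-0.96, adjusted p = 0.153). Erich1, a glutamate-rich protein, averaged -0.43 at 50 mg/kg and 1.16 at 150 mg/kg, and its call ended without rat 3125 (adjusted p = 0.0752) and without rat 3126 (adjusted p = 0.0523). Hours of killing were not given in the sources used here. Among 13 measured clock genes at 50 mg/kg 0 were called, where 1.42% of all features were. At an unadjusted p below 0.05 by limma, 3 of the 13 were higher and 1 was lower, where the shares over all features were 8.68% and 5.48%. Cry2 had the lowest mean, -0.45 (limma adjusted p = 0.00244), and Per1 the highest, 0.43.

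Against the high doses, the group differed in both directions. Relative to the mean of 1500 and 2000 mg/kg at 6 h, 1480 features differed (8.56%), with 770 higher at 50 mg/kg (4.45%) and 710 lower (4.1%). Most genes named by this contrast were near 0 at 50 mg/kg and far from it at the high doses. Nrep averaged 0.27 at 50 mg/kg, -2.78 at 1500 mg/kg and -3.32 at 2000 mg/kg. Gimd1, Amacr, a racemase of bile acid and branched fatty acid breakdown, and Rgs3, a regulator of G protein signalling, averaged 0.06, 0.15 and 0.00 at 50 mg/kg, and each was at or below -1.88 at 1500 mg/kg and -1.90 at 2000 mg/kg. In the other direction, Egr1, an immediate early transcription factor, averaged -0.87 at 50 mg/kg, 2.80 at 1500 mg/kg (2 rats, the third missing) and 3.13 at 2000 mg/kg (difference -3.83 ± 0.49, SE, limma adjusted p = 3.84e-06). Igfbp1, a fasting and stress responsive binding protein of insulin-like growth factors, averaged -0.21, 2.81 and 3.43 at those doses. Mt1, Retreg1, a receptor of endoplasmic reticulum autophagy, and Sds, serine dehydratase, had differences of -3.43, -3.05 and -3.04. Rats of the genes named by this contrast did not overlap between 50 mg/kg and the high doses, because that was required.

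Part of the 50 mg/kg profile was also present at 2000 mg/kg and little of it at 1500 mg/kg. Of the 236 higher features, 79 were called higher at 2000 mg/kg, which is 33.5% of the 236 and 8.94% of the 884 called higher there (5.11% of all features), and 4 were called lower, where 493 were (2.85%). At 1500 mg/kg, 24 were called higher, 10.2% of the 236 and 3.3% of 728 (4.21% of all features), and 18 were called lower, where 488 were (2.82%). The median of the 236 was 0.37 at 2000 mg/kg and -0.03 at 1500 mg/kg. Rats 3030, 3031 and 3032 at 1500 mg/kg were unlike for some genes, such as Usp7 (0.10, 0.25 and -1.01). They were alike for others, such as Zfp354a (4.64, 4.5 and 4.74). The part of rat 3032 in the values at 1500 mg/kg was not tested. Of the 236, 137 (58.1%) were called in neither high-dose group, where the share over all features was 88.7%, and 24, of which 10 had a symbol, were higher in both.

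**Figure D4:**
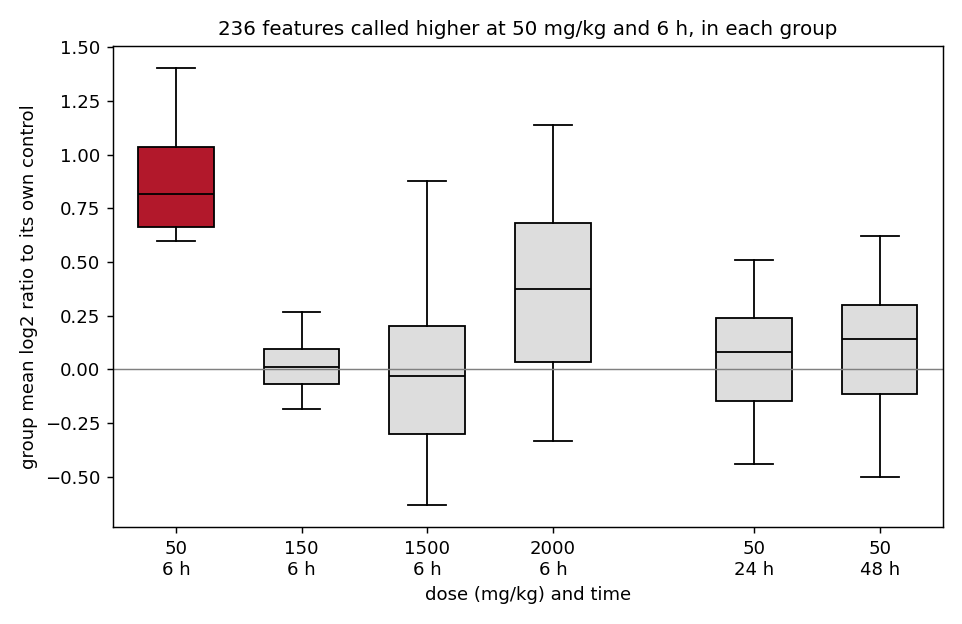
Box plots of the group mean log2 ratio of the 236 features called higher at 50 mg/kg and 6 h, in that group (red) and in 5 others (grey), each against its own control. Boxes span the quartiles with the median as a line, and whiskers run from the 5th to the 95th percentile. The features were chosen on the red box, and the grey medians are 0.01, -0.03, 0.37, 0.08 and 0.14 from left to right.

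The 10 named genes higher at all of 50, 1500 and 2000 mg/kg were Zfp354a, Alas1, Zc3h13, Tsku, Srsf4, Shld2, Lurap1l, Slc12a2, Dclre1c and Por. Zfp354a averaged 2.03 at 50 mg/kg, 0.17 at 150 mg/kg, 4.62 at 1500 mg/kg and 3.85 at 2000 mg/kg, so the lowest value was at 150 mg/kg. Por had means of 0.59, 0.09, 1.58 and 2.27 over the 4 doses, of which that at 150 mg/kg rests on 2 rats because the value of the third was missing. The difference of Por between 50 and 150 mg/kg was not called (0.50, limma adjusted p = 0.329). Alas1 had its highest mean at 50 mg/kg (1.44) and was at 0.21, 1.07 and 1.08 at the next 3 doses. Its difference from the mean of 1500 and 2000 mg/kg was not called (0.36, limma adjusted p = 0.274). Single rats reached 1.40 at 1500 mg/kg and 1.46 at 2000 mg/kg. Irs3 and Pdgfrb were the named genes lower at those 3 doses, Irs3 at -0.72, -0.59 and -0.66 and Pdgfrb at -0.67, -0.75 and -0.97. Abcg3l4, an ATP-binding cassette gene, and Foxe1, a forkhead transcription factor, were the 2 features higher at 50 mg/kg and lower at both high doses. Abcg3l4 had 1.24, 1.05 and 1.24 in the 3 rats, against means of -0.85 at 1500 mg/kg and -1.05 at 2000 mg/kg, a difference of 2.13 ± 0.18 (SE, limma adjusted p = 4.01e-09). Foxe1 averaged 0.71 at 50 mg/kg, -0.83 at 1500 mg/kg and -1.12 at 2000 mg/kg. Ghr and Actn4 had means of 1.29 and 1.38 at 50 mg/kg, -0.57 and -0.56 at 1500 mg/kg and -0.12 and -0.04 at 2000 mg/kg. At 1500 mg/kg rat 3032 was the lowest for both, with Ghr at -0.40, -0.10 and -1.21 and Actn4 at 0.14, -0.22 and -1.59.

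At the same dose, few of these features were called at the later times, but their shares called higher were above those of all features. Relative to the mean of 24 and 48 h, 1248 features differed at 6 h (7.21%), with 781 higher (4.51%) and 467 lower (2.7%). These were 956 and 805 with arrays scaled to equal spread, and 443 and 464 with the dye profile of other groups removed. Of the 236 higher features, 6 were called higher at 24 h (2.54% of the 236 and 1.66% of 362, which is 2.09% of all features) and 16 at 48 h (6.78% of the 236 and 4.21% of 380, which is 2.2% of all features). Called lower were 4 of them at 24 h, where 252 were (1.46%), and 10 at 48 h, where 304 were (1.76%). Of the 236, 147 had a mean above 0 at 24 h and 148 at 48 h, against 49.1% and 50.5% of all features. Zfp354a averaged 2.03 at 6 h, 0.25 at 24 h and -1.35 at 48 h, and Alas1 averaged 1.44, -0.31 and -0.73. The difference of Zfp354a was 2.59 ± 0.37 (SE, limma adjusted p = 4.32e-05) and that of Alas1 was 1.96 ± 0.23 (SE, limma adjusted p = 4.64e-06). Usp7, Actn4 and Ptms were higher at 6 h by 1.84, 1.72 and 1.69. A lack of overlap with the rats of the later times was required of genes named by this contrast.

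The 5 genes named as lower at 6 h than later were not called at 6 h themselves. Dusp6, a phosphatase of ERK kinases, averaged -0.75 ± 0.71 at 6 h, 0.92 at 24 h and 0.84 at 48 h, with the 3 rats at 6 h spread from -1.56 to -0.27. Tnnc2, fast muscle troponin C, averaged -0.76 at 6 h, 0.57 at 24 h and 0.92 at 48 h. Rab2a, a small GTPase of Golgi traffic, averaged -0.57 at 6 h, 0.73 at 24 h and 0.73 at 48 h, and Thoc7, a subunit of the mRNA export complex, averaged -0.49, 0.69 and 0.75. Osgin1, an oxidative stress induced growth inhibitor, averaged -0.77 at 6 h, 0.37 at 24 h and 0.72 at 48 h, and its call ended without rat 3126 (-1.05, limma adjusted p = 0.0774). Pools differed between the times, and their part in these differences was not tested.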

How the data were processed

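RNA from the left liver lobe of 36 rats was measured on 72 two-colour Agilent arrays. The deposited values are log10 ratios from Agilent Feature Extraction software, per the labels. Its version and the normalization of the dyes were not stated there. No deposited log10 value exceeded 2 in size, and 0 values of the 6 arrays reached that limit. On these arrays 9 to 57 probes were missing and 3.37% of values were exactly 0. The dye of the treated rat was taken from the labels of the acetaminophen channel.

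Values were converted to log2, turned to treated over control and averaged within each rat, which needed both arrays. Probes of 1 symbol were averaged (20500 probes, 12750 with 1 symbol in the platform annotation), and a feature needed 2 rats in every group (17299 of 17403). The 12 group means were fitted on the 36 rats in limma 3.58.1 (R 4.3.3), moderated by empirical Bayes. All p-values are two-sided and from limma. The number of arrays limits the precision. On data simulated for 50 mg/kg at 6 h over 17299 features, 47 of 50 genes raised by log2 1, 50 of 50 raised by log2 2 and 49 of 50 lowered by either amount were called, and 0 of 17099 unchanged ones. The simulated noise was normal and independent between rats, without a dye effect or an error of a shared pool. It therefore cannot measure false calls from those sources. Members, lists and tests were chosen with earlier results of these data known. Named genes are the 18 largest increases and up to 10 decreases among called genes with a symbol and 1 sign on all 6 arrays, the 5 largest differences in each direction of 3 contrasts among called genes whose rats did not overlap, called members of the fixed lists, and fixed genes of acetaminophen injury. Gclc of the fixed genes had no tested feature with its symbol. List members, Srsf4, Shld2, Lurap1l, Slc12a2, Dclre1c and Foxe1 were named after their values were seen.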

Additional observations from a re-analysis of the deposited data

Results flagged for a closer look

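The profile at 50 mg/kg and 6 h differed from that of other groups by tests of the difference itself. The number of features that differed was 232 against 150 mg/kg at 6 h, 1480 against the high doses at 6 h (the mean of 1500 and 2000 mg/kg), and 1248 against the mean of 24 and 48 h at 50 mg/kg. Every group was set against its own control, so differences between controls are part of these values.

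On the log2 scale, the genes named as higher at 50 mg/kg than at 150 mg/kg differed by 1.87 (Zfp354a), 1.63 (Usp7), 1.54 (Topors), 1.52 (Actn4) and 1.43 (Anp32b). Those named as lower differed by -2.04 (Mt2A), -1.64 (Mt1), -1.59 (Erich1), -1.46 (Ldhc) and -1.08 (Dbp). Against the mean of 1500 and 2000 mg/kg, the higher genes differed by 3.32 (Nrep), 2.32 (Gimd1), 2.21 (Amacr), 2.18 (Rgs3) and 2.13 (Abcg3l4). The lower genes differed by -3.83 (Egr1), -3.43 (Mt1), -3.33 (Igfbp1), -3.05 (Retreg1) and -3.04 (Sds). Against the mean of the later times, the higher genes differed by 2.59 (Zfp354a), 1.96 (Alas1), 1.84 (Usp7), 1.72 (Actn4) and 1.69 (Ptms). The lower genes differed by -1.63 (Dusp6), -1.51 (Tnnc2), -1.32 (Osgin1), -1.30 (Rab2a) and -1.21 (Thoc7). Groups of 3 rats were too small for a test of single outlying rats.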

How the results depend on the processing

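No fit turned the direction of a called named gene. The largest changes were chosen with 1 sign on all 6 arrays, so fits on part of the arrays could not turn them. Contrast genes were chosen without overlap of rats, so leaving out 1 rat could not turn those. Of uncalled ones, Cyp1a2, Atf3, Cdkn1a and Ddit3 had opposite signs on the Cy5 arrays (-0.49, 0.10, 0.03 and 0.01) and the Cy3 arrays (0.43, -0.13, -0.13 and -0.30), and Nqo1 and A2m changed sign without 1 rat (-0.02 and -0.01). Counts moved as follows. With no fold minimum, 549 features were higher and 106 lower (83.8% higher against 95.9%), and the 3 contrasts held 349, 3912 and 2991, in the order of 150 mg/kg, the high doses and the later times. With arrays scaled to equal median absolute deviation, 457 were higher and 101 lower (81.9% higher), the 150 mg/kg contrast held 1162 (71.6% higher against 90.9%), and Mt2A was called (1.29). With only the rats compared, 5 were lower, and the contrasts with 150 mg/kg and the high doses held 359 (80.8% higher) and 812. With arrays as observations 22 were lower. On the Cy5 arrays alone 196 were higher and 129 lower (60.3% higher), and the contrasts held 140, 2869 and 2250 (52.2% higher for the later times against 62.6%). On the Cy3 arrays alone 621 were higher and 228 lower (73.1% higher), and the contrasts with the high doses and later times held 834 and 399. Leaving out 1 rat gave 208 to 229 higher, 7 to 17 lower, and 149 to 189, 1166 to 1554 and 970 to 1274 in the contrasts. With the dye profile of other groups removed, an alternative chosen after seeing the data, the later-time contrast was 48.8% higher. Ldhc, Por and Ipmk lost their calls on the 3 rats alone (adjusted p = 0.0628, 0.0761 and 0.122), and Actn4, Erich1 and Dbp lost theirs against 150 mg/kg on the 12 rats at 6 h (adjusted p = 0.0803, 0.17 and 0.0679). Ptprs, Tsku, Por, Hsp90ab1 and Ipmk lost theirs on the Cy5 arrays, as did Zfp354a, Actn4, Mt1 and Dbp against 150 mg/kg (adjusted p = 0.091, 0.129, 0.0969 and 0.155). On the Cy3 arrays Erich1 (against 150 mg/kg) and Tnnc2 (against later times) lost theirs. Ipmk also lost its call on the 12 rats at 6 h, and Ipmk and Por with the dye profile removed. The causes were not tested. Requiring 1 sign on all 6 arrays, also chosen after seeing the data, left 225 higher and 10 lower. The 2 arrays of a rat correlated at -0.25 in the fit with the rat as a random block. Brightness over background is unknown here. No paired analysis was possible because rat numbers differ between groups and each group has its own control.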

Other observations

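Among the 100 named higher genes were further ligands and receptors of growth signalling, named here after their values were seen. Vegfa, the vascular growth factor, averaged 0.99 ± 0.14 (SD, n = 3, limma adjusted p = 1.17e-05), Hgf, the hepatocyte growth factor made by stellate cells, 0.72 ± 0.12, and Rspo3, an enhancer of Wnt signalling made by central vein endothelium in mouse liver, 0.86 ± 0.21. Gdnf, a neurotrophic factor, averaged 0.81 ± 0.13. The kinase Jak1, which transmits cytokine signals, averaged 0.92 ± 0.13.

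Also named after their values were seen were genes of other kinds. Alkbh5, the demethylase of the adenosine mark that the complex of Zc3h13 writes, averaged 0.99 ± 0.02 (limma adjusted p = 7.95e-07). Srsf4, a splicing factor, averaged 0.77 ± 0.04. Acox3, a peroxisomal acyl-CoA oxidase, was the largest named change after the 18 described, at 1.05 ± 0.04 (adjusted p = 0.00027).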
